A study of Mus musculus with 18 samples.

Results

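MHC class I presentation genes are described here through 10 genes: the heavy chains H2-K1, H2-D1, H2-T23 and H2-Q7, the light chain B2m, the peptide transport and loading genes Tap1, Tap2 and Tapbp, the peptidase gene Erap1 and the regulator gene Nlrc5. They were taken by symbol from 2 tables of 21441 genes each, 1 for RAW264.7 macrophages and 1 for mouse liver. All 10 had a row in both tables, and all 10 passed the filter on low values (a mean above 1 FPKM, fragments scaled to transcript length and by a factor for each library), as did 9905 genes of the macrophage table and 10147 of the liver table.

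Each table held 9 RNA-seq libraries, 3 for control, 3 for LPS and 3 for LPS+MIC-1. LPS, or lipopolysaccharide, is a bacterial cell wall component that sets off inflammation, and MIC-1 is moringa isothiocyanate-1, a compound from the seeds of Moringa oleifera. RAW264.7 is a mouse macrophage line, and its groups were solvent control, LPS, and LPS with 10 uM MIC-1. The labels of these cell samples instead give the strain and the doses per kg of the mouse experiment. The livers came from male wild type C57BL/6 mice that received the vehicle (10% DMSO) and saline as control, vehicle and LPS at 10 mg/kg by intraperitoneal injection, or MIC-1 at 80 mg/kg in 10% DMSO by gavage on 3 days followed by the same LPS injection. The mice were killed 16 h after LPS. Each group had 6 mice, of which 3 were sequenced. RAW264.7 is 1 cell line, and nothing says that its libraries came from separate cultures, so p-values measure the spread between these libraries, which may be technical.

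Class I molecules show short peptides from inside the cell to CD8 T cells and natural killer cells. Peptides are cut by the proteasome, carried into the endoplasmic reticulum by the Tap1-Tap2 transporter, trimmed there by the aminopeptidase Erap1 and loaded with the help of tapasin (Tapbp) onto a heavy chain paired with beta-2 microglobulin (B2m). H2-K1 and H2-D1 encode classical heavy chains that present to CD8 T cells, H2-T23 encodes the non-classical Qa-1, and H2-Q7 encodes a non-classical chain of the Qa-2 group. Nlrc5 is the transactivator that assembles on class I promoters, and interferons and NF-kB are well known inducers of the pathway in macrophages and other cells.

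The libraries are numbered in the order of the table columns, which carry no replicate numbers. LPS library 2 of RAW264.7 lay at or near the control level for nearly all members, unlike LPS libraries 1 and 3. The study used 2 LPS libraries of these cells and does not name the one left out. Each macrophage comparison is given over 9 libraries and over the 8 without LPS library 2. That library was chosen because it stood apart, with earlier results of these data known. The 8-library p-values for comparisons with LPS thus come from libraries picked by their values. Those for LPS+MIC-1 against control also depend on this choice, since the 3 groups share 1 estimate of the spread. There the SE of H2-Q7 was 0.31 over 9 libraries and 0.18 over 8, at the same Log2FC. LPS libraries 1 and 3 also had FPKM sums of 1137533 and 1132904, against 557136 to 652486 in the other 7 RAW264.7 libraries. Rescaling every library to the same FPKM sum moved the median Log2FC of all genes for LPS against control over 8 libraries from -0.02 to -0.93, and signs that this turns are named beside the values. Scaling each library by the median ratio of its genes to their average over libraries left the median at -0.03. In that comparison it kept 5 members called, with Erap1 (-1.004) in place of H2-T23 (0.997). Estimated depth was 18.98 to 24.72 M reads in RAW264.7 and 4.89 to 20.04 M reads in liver, where control libraries 2 and 3 were the shallowest with 5.0 and 4.89 M. Even there the least covered member, Tap2, had an estimated 141 and 143 reads. Libraries 1 and 3 of each RAW264.7 group, of the liver LPS group and of the liver LPS+MIC-1 group were closer to each other than to library 2, though further apart than estimated sampling noise, and were counted separately.

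The 8 macrophage markers with a row summed to 11253 to 13869 FPKM in all 9 RAW264.7 libraries, and the 10 hepatocyte markers to 42289 to 84756 FPKM in all 9 livers. In liver the macrophage markers summed to 37.3 to 56.7 FPKM in controls, 678, 168 and 654 after LPS and 164, 469.98 and 167 after LPS+MIC-1. For this sum library 2 thus stood apart in both treated groups, low with LPS and high with LPS+MIC-1. Of 6 macrophage markers tested in liver, 3 were called higher and 0 lower with LPS, where 13.4% of all genes rose and 11.2% fell. The 6 markers of Kupffer cells, the resident macrophages of liver, summed to 102 to 112 FPKM in controls. They summed to 90.1, 110 and 95.5 after LPS and 175, 83.0 and 177 after LPS+MIC-1, so their library 2 lay the other way. The 7 neutrophil markers with a row summed to 36.0 to 53.3, 319 to 394 and 183 to 435 FPKM in the same groups. With LPS, 1 of 6 Kupffer cell markers tested was called higher and 2 lower. Of 6 neutrophil markers tested, 5 were called higher and 1 lower. The part of these markers in the liver results was not tested. In bulk tissue fewer cells of a type and less RNA per cell cannot be told apart.

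Upstream sequence is shown for 6 members so that the letters before members with unlike responses in RAW264.7 can be read side by side. Each is the 250 bases before the RefSeq start site, written 5′ to 3′ on the gene's strand, from the RefSeq promoter set of mouse and placed in mm9 by an exact match found at 1 position. The windows lie at chr17:34137293-34137542 on the minus strand for H2-K1, chr17:35399789-35400038 plus for H2-D1, chr17:36169647-36169896 minus for H2-T23, chr2:121973173-121973422 plus for B2m, chr17:34324251-34324500 plus for Tap1 and chr13:74777051-74777300 plus for Erap1. Capitals mark matches, on either strand, to an interferon-type element (GAANNGAAA or GAAANNGAA), to the CRE-like letters TGACG, which are bound by factors of the CREB family, and to the NF-kB motif. They also mark CCAAT boxes, the sites named for the letters they hold. The interferon-type and NF-kB letters did not overlap each other in any of these windows.
H2-K1: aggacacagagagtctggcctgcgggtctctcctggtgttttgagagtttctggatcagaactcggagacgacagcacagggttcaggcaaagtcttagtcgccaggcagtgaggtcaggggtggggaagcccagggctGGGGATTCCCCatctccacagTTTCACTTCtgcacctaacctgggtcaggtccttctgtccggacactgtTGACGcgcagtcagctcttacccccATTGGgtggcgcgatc
H2-D1: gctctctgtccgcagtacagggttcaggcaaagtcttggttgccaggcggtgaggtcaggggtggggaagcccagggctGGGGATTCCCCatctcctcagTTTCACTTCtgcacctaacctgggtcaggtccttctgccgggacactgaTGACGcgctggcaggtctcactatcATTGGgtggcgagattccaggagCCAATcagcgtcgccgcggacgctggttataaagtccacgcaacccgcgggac
H2-T23: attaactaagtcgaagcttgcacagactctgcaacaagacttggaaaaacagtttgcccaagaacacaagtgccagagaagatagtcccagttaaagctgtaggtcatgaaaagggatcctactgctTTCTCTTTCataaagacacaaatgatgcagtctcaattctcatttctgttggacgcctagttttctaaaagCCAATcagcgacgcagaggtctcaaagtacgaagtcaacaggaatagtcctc
B2m: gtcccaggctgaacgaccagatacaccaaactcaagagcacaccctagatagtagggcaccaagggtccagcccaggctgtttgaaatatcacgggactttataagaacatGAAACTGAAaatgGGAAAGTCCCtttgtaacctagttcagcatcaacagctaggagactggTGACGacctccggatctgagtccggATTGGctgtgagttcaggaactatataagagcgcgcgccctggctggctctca
Tap1: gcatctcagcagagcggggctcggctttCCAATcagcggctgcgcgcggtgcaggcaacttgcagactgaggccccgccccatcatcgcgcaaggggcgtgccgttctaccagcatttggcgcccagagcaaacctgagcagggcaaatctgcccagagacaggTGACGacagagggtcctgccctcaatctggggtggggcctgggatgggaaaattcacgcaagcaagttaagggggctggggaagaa
Erap1: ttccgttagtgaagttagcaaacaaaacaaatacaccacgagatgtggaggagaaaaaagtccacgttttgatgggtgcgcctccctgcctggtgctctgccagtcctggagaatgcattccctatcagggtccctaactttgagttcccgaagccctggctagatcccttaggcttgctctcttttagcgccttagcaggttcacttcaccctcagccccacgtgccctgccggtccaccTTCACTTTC

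Of the 10 members, 8 had a RefSeq promoter, the exceptions being Tap2 and Nlrc5. The interferon-type element and the NF-kB motif stood together in the windows of H2-K1, H2-D1, H2-Q7 and B2m, a pairing found in 0.69% of 32851 RefSeq promoters. The windows of H2-K1, H2-D1 and H2-Q7 hold nearly the same letters at these matches, and these genes are close copies, so they are not independent. The share is given as background and is no test of enrichment. H2-T23 and Erap1 held the interferon-type element without the NF-kB motif, and Tap1 and Tapbp held neither. Among all promoters of the same length, 12.5% held the interferon-type element, 7.3% the NF-kB motif, 17.8% the CRE-like element and 33.8% a CCAAT box. In H2-K1 the NF-kB match began 111 bases and the interferon-type match 90 bases before the start site, and the CRE-like match lay between 41 and 37 bases before it. The CRE-like letters were also present in H2-D1, H2-Q7, B2m and Tap1, and a CCAAT box in every window but that of Erap1. The windows of Tap1 and of Psmb9, an immunoproteasome gene that starts on the opposite strand, shared 225 of their 250 bases. A match is a description of letters and was not tested for binding or for a link with the responses.

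In the mm9 annotation, 7 of the members are on chromosome 17, among them H2-K1 at chr17:34132962-34137278, Tapbp at chr17:34052844-34066235, Tap1 at chr17:34324498-34334170, Tap2 at chr17:34340472-34353266, H2-D1 at chr17:35399675-35404444, H2-Q7 at chr17:35576100-35580714 and H2-T23 at chr17:36166718-36169800. B2m is at chr2:121973422-121978819, Erap1 at chr13:74777320-74829983 and Nlrc5 at chr8:96996663-97051172. By these positions the promoter windows of H2-D1 and Tapbp lie within the annotated gene, and much of that of H2-T23 does. For these genes the RefSeq start site, from which the windows and match distances are counted, thus differs from the annotated gene start. The H2 heavy chain genes are close copies of each other, so reads can be split among them, and RAW264.7 comes from BALB/c mice, whose H2 alleles differ from those of the C57BL/6 reference. The effect of either on the values was not tested.

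Per length, B2m was the most abundant member in every group. In controls it stood at 2835 ± 238 FPKM (SD, n = 3) in RAW264.7, rank 16 of 9905 genes, and at 4895 ± 676 FPKM (SD, n = 3) in liver, rank 20 of 10147. The 2 sources ordered the heavy chains differently. RAW264.7 controls had H2-D1 next (661 ± 133 FPKM, SD, n = 3), then H2-T23 (187 ± 40.7), H2-K1 (185 ± 32.2) and Tapbp (175 ± 4.32), whose ranges overlapped. Below them came Tap1 (54.0 ± 8.25 FPKM, SD, n = 3), then H2-Q7, Tap2 and Erap1 with overlaps between neighbours, and last Nlrc5 (8.08 ± 0.894). Liver controls had H2-K1 next (759.8 ± 79.2 FPKM, SD, n = 3), then H2-D1 (222 ± 42.3) and H2-T23 (79.9 ± 18.6), with no overlap between these neighbours. H2-Q7 and Tapbp overlapped in liver controls, Erap1 followed at 13.8 ± 0.672 FPKM (SD, n = 3), and Tap2, Tap1 and Nlrc5 (6.68 ± 2.87) overlapped at the bottom. The tables were normalized separately, so levels of RAW264.7 and liver are set side by side without a test.

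**Figure D1:**
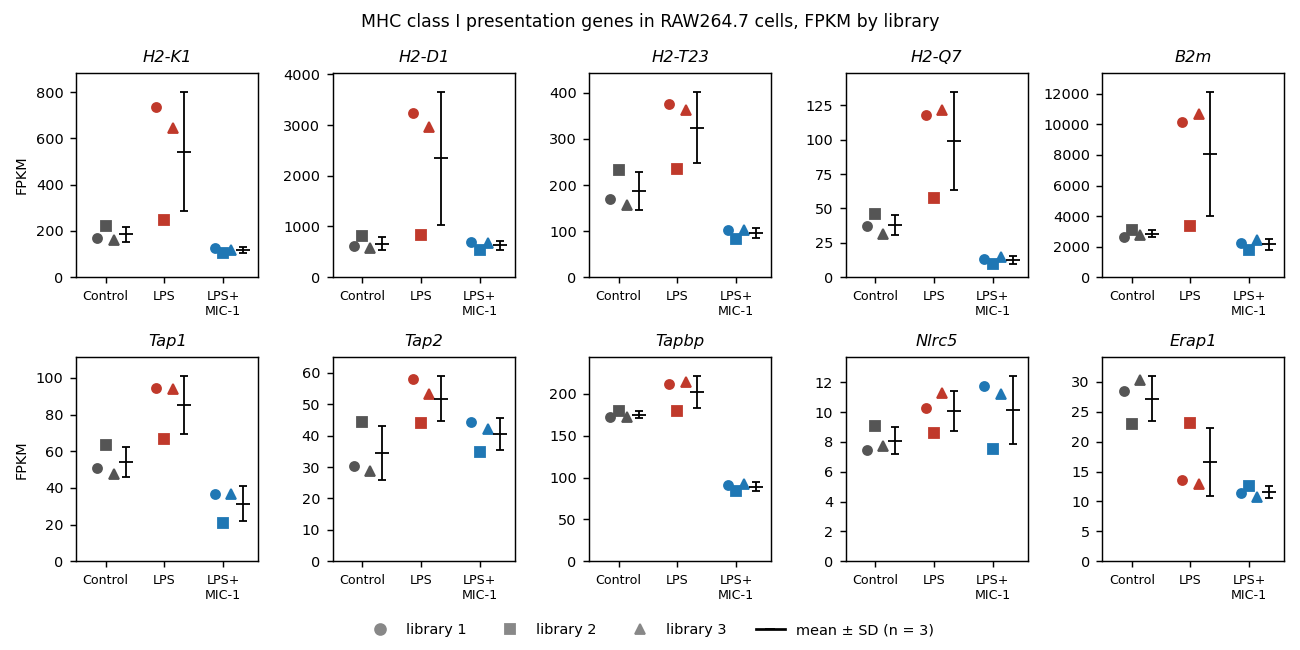
FPKM of the 10 members in the RAW264.7 libraries, 1 panel per gene with a linear axis from 0, points for libraries and bars for the mean with its SD (n = 3 per group). LPS library 2 sits beside the controls for the 4 heavy chains and B2m, where the other LPS libraries are highest, as in H2-D1 with 3231 and 2966 against 841 FPKM.

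The comparison of LPS with control in RAW264.7 asked how the genes responded to an inflammatory stimulus. In LPS libraries 1 and 3 the heavy chains and B2m were above every control library, while LPS library 2 was near it. Over 8 libraries 5 of the 10 members rose (H2-K1, H2-D1, H2-T23, H2-Q7 and B2m) by the limits of adjusted p below 0.01 and Log2FC above 1, where 16.3% of all genes tested rose. Over 9 libraries none of the members was called, as none of the 9905 genes was (0%). There limma's smallest adjusted p was 0.0777, and 1901 genes had an unadjusted p below 0.05 with an absolute Log2FC above 1. The median Log2FC of the members was 0.91 against -0.02 for all genes over 8 libraries, and 0.72 against -0.03 over 9. LPS and control libraries did not overlap for all 10 members over 8 libraries, where 85.6% of all genes did not, and for 6 over 9, where 33.3% did not.

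H2-D1 read 605, 812 and 565 FPKM in the control libraries and 3231, 841 and 2966 FPKM in the LPS libraries. LPS library 2 exceeded the highest control by little, and the other LPS libraries stood far above it. The Log2FC of H2-D1 was 2.25 ± 0.18 (SE, adjusted p = 1.5e-05) over 8 libraries, a 4.69-fold rise, and 1.62 ± 0.47 (adjusted p = 0.0777) over 9. H2-K1 went from 171, 222 and 162 FPKM in controls to 733, 249 and 646 FPKM after LPS, with the same LPS library low. Its Log2FC was 1.91 ± 0.15 (SE, adjusted p = 1.62e-05) over 8 libraries, or 3.73-fold. H2-Q7 read 37.0, 45.9 and 31.4 FPKM in controls and 118, 57.6 and 121 FPKM after LPS, so that all 3 LPS libraries were above the controls. The rise of H2-Q7 over 8 libraries was 3.14-fold (Log2FC 1.66 ± 0.20, adjusted p = 0.000163).

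H2-T23, the Qa-1 gene, passed the fold limit narrowly. It read 169.8, 233 and 157 FPKM in controls and 376, 235 and 363 FPKM after LPS. The Log2FC over 8 libraries was 1.00 ± 0.17 (SE, adjusted p = 0.000983), and it was 0.01 after rescaling to the same FPKM sum. B2m, the shared light chain, read 2654, 3105 and 2746 FPKM in controls and 10168, 3354 and 10655 FPKM after LPS. This was a 3.67-fold rise over 8 libraries (Log2FC 1.88 ± 0.14, adjusted p = 1.07e-05).

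The peptide transport and loading genes showed smaller differences, and none of the 3 was called. Tap1 read 50.8, 63.3 and 47.7 FPKM in controls and 94.7, 66.8 and 94.0 after LPS. Its Log2FC over 8 libraries was 0.81 ± 0.25 (SE, adjusted p = 0.0184). Tap2 read 30.3, 44.3 and 28.8 FPKM in controls and 58.1, 43.9 and 53.4 after LPS, with LPS library 2 inside the control range. Its Log2FC over 8 libraries was 0.71 ± 0.19 (adjusted p = 0.00969), short of the fold limit alone. Tapbp, the tapasin gene, read 173, 180.2 and 172 FPKM in controls and 212, 180.2 and 215 after LPS. Its Log2FC of 0.29 ± 0.06 (adjusted p = 0.00454) over 8 libraries also missed the fold limit alone. Nlrc5 was at 7.42, 9.10 and 7.72 FPKM in controls and 10.3, 8.62 and 11.3 after LPS, and its Log2FC of 0.40 ± 0.18 had an adjusted p of 0.0818 over 8 libraries. These 4 genes took the opposite sign once every library was rescaled to the same FPKM sum, with a Log2FC of -0.17 for Tap1, -0.27 for Tap2, -0.70 for Tapbp and -0.54 for Nlrc5. That rescaling also moved the median Log2FC of all genes to -0.93. Scaling by the median ratio did not turn the sign of any of the 4.

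Erap1 was the member that was lower in LPS libraries 1 and 3. It read 28.4, 22.96 and 30.2 FPKM in controls and 13.6, 23.2 and 12.9 FPKM in the LPS libraries, of which library 2 lay within the control range. The Log2FC was -0.999 ± 0.13 over 8 libraries (SE, adjusted p = 0.000178), just short of the fold limit. After rescaling to the same FPKM sum Erap1 had a Log2FC of -1.96 and passed, and H2-D1 (1.25) was the only other member called, while H2-K1 (0.92), B2m (0.89) and H2-Q7 (0.67) stayed higher without passing.

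**Figure D2:**
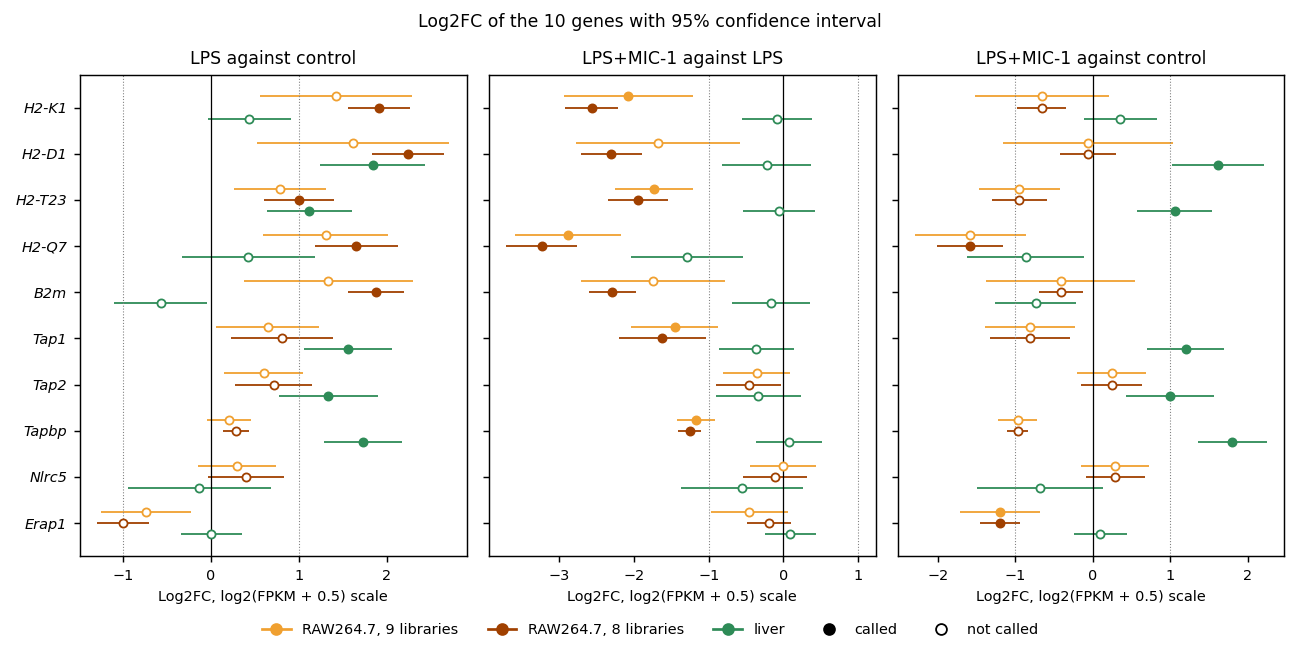
Log2FC of the 10 members in each comparison, on a log2 scale with 95% confidence intervals from the limma fit, for RAW264.7 over 9 and over 8 libraries and for liver. In RAW264.7 the LPS+MIC-1 against LPS values reach from -3.24 for H2-Q7 to -0.11 for Nlrc5 over 8 libraries, and in liver 9 of the 10 intervals of that comparison include 0.

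LPS+MIC-1 was compared with LPS to ask what MIC-1 did to the response. 7 of the members fell over 8 libraries, namely the 4 heavy chains, B2m, Tap1 and Tapbp, where 12.0% of all genes fell. Over 9 libraries 5 of them fell (H2-K1, H2-T23, H2-Q7, Tap1 and Tapbp), where 1.81% of all genes fell, and H2-D1 (-1.68, adjusted p = 0.041) and B2m (-1.75, adjusted p = 0.0248) missed the limit. Over 9 libraries none was called with only the compared groups fitted, or with libraries 1 and 3 of each group averaged. None of the 10 rose. LPS+MIC-1 did not overlap LPS for 9 members over 8 libraries (80.3% of all genes) and 8 over 9 (36.1%). The median Log2FC of the members was -1.78 against 0.01 for all genes over 8 libraries, and -1.57 against -0.01 over 9. All 7 kept a negative Log2FC with libraries rescaled to the same FPKM sum, where Tap1 (-0.82) and Tapbp (-0.45) were no longer called.

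H2-Q7 fell the most. Its LPS+MIC-1 libraries read 13.5, 9.41 and 14.5 FPKM against 118, 57.6 and 121 in the LPS libraries. Every LPS+MIC-1 value was below every LPS value, LPS library 2 included. The Log2FC was -3.24 ± 0.20 (SE, adjusted p = 9.92e-06) over 8 libraries, a 9.60-fold difference, and -2.89 ± 0.31 (adjusted p = 0.00124) over 9. H2-K1 read 128, 102 and 118 FPKM with MIC-1, all below the LPS libraries, and was 5.93-fold lower than LPS over 8 libraries (Log2FC -2.57 ± 0.15, adjusted p = 7.92e-06). H2-D1 read 688, 526.0 and 677 FPKM with MIC-1, 4.92-fold below LPS over 8 libraries (Log2FC -2.31 ± 0.18, adjusted p = 2.12e-05).

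H2-T23 and B2m were also below every LPS library. H2-T23 read 103, 82.7 and 102 FPKM with MIC-1, with a Log2FC of -1.95 ± 0.17 (SE, adjusted p = 4.11e-05) over 8 libraries. B2m read 2251, 1767 and 2413 FPKM, with a Log2FC of -2.29 ± 0.14 (adjusted p = 8.09e-06). The classical and non-classical heavy chains and the light chain thus shared a direction, with sizes from 3.86-fold for H2-T23 to 9.60-fold for H2-Q7.

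The subunits of the peptide transporter differed. Tap1 read 36.8, 20.6 and 36.8 FPKM with MIC-1, below every LPS library, and its Log2FC was -1.62 ± 0.25 (SE, adjusted p = 0.000739) over 8 libraries. Tap2 read 44.3, 34.7 and 42.2 FPKM with MIC-1, which overlapped LPS library 2, and its Log2FC of -0.47 ± 0.19 (adjusted p = 0.0588) was not called. Tapbp fell from 212, 180.2 and 215 FPKM with LPS to 91.5, 83.5 and 92.7 FPKM, and its Log2FC was -1.26 ± 0.06 (SE, adjusted p = 5.21e-06). Nlrc5 read 11.7, 7.54 and 11.2 FPKM with MIC-1, which overlapped the LPS range of 8.62 to 11.3, and its Log2FC was -0.11 with a 95% confidence interval from -0.54 to 0.32. Erap1 read 11.3, 12.6 and 10.7 FPKM, just below the LPS libraries, with a Log2FC of -0.20 and an interval from -0.49 to 0.10. Under the same FPKM sum the Log2FC of Tap2, Nlrc5 and Erap1 became positive.

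Set against control, LPS+MIC-1 asked whether the members returned to the untreated level. H2-Q7 and Erap1 fell over 8 libraries (8.20% of all genes fell), and Erap1 fell over 9 (2.32%). H2-Q7 with MIC-1 was 3.06-fold below control (Log2FC -1.58 ± 0.18, adjusted p = 0.000216 over 8 libraries and 0.0101 over 9). Erap1 was 2.36-fold below control (Log2FC -1.19 ± 0.11, adjusted p = 7.8e-05 over 8 libraries and 0.00851 over 9). Tapbp (-0.97) and H2-T23 (-0.95) stopped just short of the fold limit with adjusted p of 1.22e-05 and 0.00118 over 8 libraries, and both passed it under the same FPKM sum. H2-K1 (-0.66 ± 0.14), Tap1 (-0.81 ± 0.22) and B2m (-0.41 ± 0.12) were also below every control library but not called. No overlap with controls was seen for 7 of the 10 members and for 66.4% of all genes, so it does not set the members apart. H2-D1 was at 630.3 ± 90.4 FPKM against 661 ± 133 in controls (SD, n = 3), with a Log2FC of -0.06 and a 95% interval from -0.43 to 0.31 over 8 libraries. Tap2 (0.25) and Nlrc5 (0.29) overlapped the controls. The median Log2FC of the members was -0.73 against -0.04 for all genes. This comparison shares its LPS+MIC-1 libraries with the one above, and its control libraries with LPS against control, so the values are given side by side.

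Ratios of members within a library do not depend on how libraries were scaled. With 3 against 3 or 2 against 3 libraries the smallest exact two-sided permutation p is 0.1, so none can pass 0.05. B2m over the sum of the 4 heavy chains stayed between 2.28 and 3.00 in all 9 RAW264.7 libraries, and the groups overlapped. H2-D1 over H2-K1 was 3.49 to 3.67 in controls, 4.41, 3.38 and 4.59 after LPS and 5.13 to 5.72 with LPS+MIC-1. The LPS+MIC-1 ratios were above every other library (exact permutation p = 0.1 against control and against LPS). Tap1 over Tap2 was 1.43 to 1.68 in controls, 1.52 to 1.76 after LPS and 0.595 to 0.872 with LPS+MIC-1. Here Tap2 exceeded Tap1 in the 3 LPS+MIC-1 libraries and in no other RAW264.7 library (exact permutation p = 0.1 for both comparisons).

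Tap1 and Psmb9, whose promoter windows overlap, did not keep 1 ratio. Tap1 over Psmb9 was 0.462 to 0.478 in RAW264.7 controls, 1.13, 0.519 and 1.02 after LPS and 0.921 to 1.01 with LPS+MIC-1. All LPS and LPS+MIC-1 libraries were above the controls (exact permutation p = 0.1 for each). In liver the ratio was 0.296 to 0.426 in controls, 0.347 to 0.720 with LPS, which overlapped, and 0.463 to 0.545 with LPS+MIC-1.

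**Figure D3:**
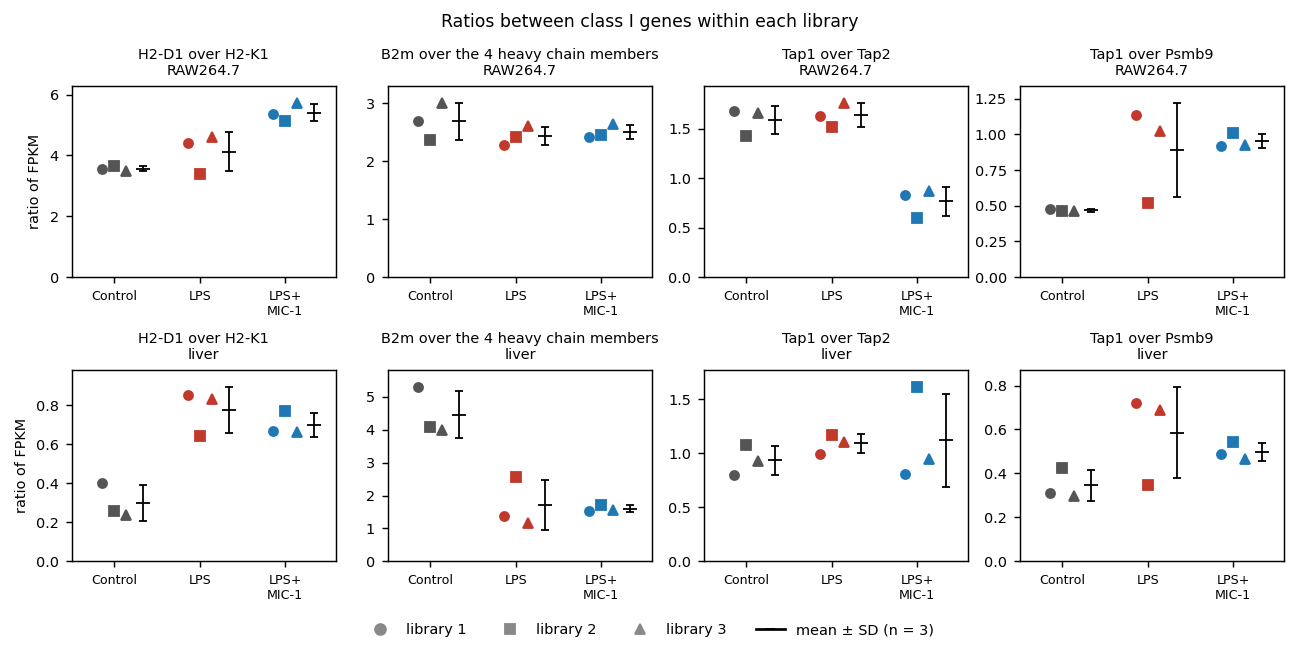
Ratios of FPKM within each library, on linear axes from 0, for RAW264.7 and liver, with points for libraries and bars for the mean with its SD (n = 3 per group). Tap1 over Tap2 in RAW264.7 drops to 0.595 to 0.872 with LPS+MIC-1, and B2m over the 4 heavy chains in liver drops from 4.004 to 5.30 in controls to 1.16 to 2.57 with LPS.

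In liver LPS was compared with control for the response of a whole tissue. H2-D1, H2-T23, Tap1, Tap2 and Tapbp rose against control, 5 of the 10, by the limits of adjusted p below 0.05 and Log2FC above 1, where 13.4% of all genes tested rose. H2-K1, H2-Q7, B2m, Nlrc5 and Erap1 were not called. The median Log2FC of the members was 0.78 against 0.15 for all genes. LPS and control livers did not overlap for 7 of the 10 members and for 45.0% of all genes. Whether the response differed from that of RAW264.7 was not tested. Rescaling to the same FPKM sum left H2-D1 (1.48), Tap1 (1.21) and Tapbp (1.37) called, and H2-T23 (0.76) and Tap2 (0.99) higher but short of the limit. With libraries 1 and 3 of every group averaged, controls included, Tapbp alone was called, and the adjusted p of the other 4 was 0.0653 to 0.0967. This was chosen after seeing how close libraries 1 and 3 of the LPS groups were. In controls libraries 2 and 3 were the closest pair, so the averaging there joined less similar libraries.

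H2-D1 read 271, 198 and 197 FPKM in control livers and 889, 546 and 1006 FPKM in LPS livers. The groups did not overlap, and its Log2FC was 1.84 ± 0.26 (SE, adjusted p = 0.00292), or 3.67-fold. H2-T23 read 101, 71.9 and 66.5 FPKM in controls and 177, 144 and 197 after LPS, a Log2FC of 1.12 ± 0.21 (adjusted p = 0.00709). H2-K1 was above every control as well, from 674, 775 and 830.5 FPKM to 1045, 854 and 1206, but its Log2FC of 0.44 ± 0.21 (adjusted p = 0.126) was not called. H2-Q7 overlapped its controls, with 24.01, 39.9 and 47.4 FPKM against 40.1, 54.3 and 51.2 after LPS.

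The transport and loading genes rose together in LPS livers. Tap1 went from 6.80, 8.22 and 7.07 FPKM in controls to 25.6, 16.9 and 26.6 FPKM (Log2FC 1.56 ± 0.22, adjusted p = 0.00281). Tap2 went from 8.50, 7.67 and 7.65 FPKM to 25.7, 14.5 and 24.1 FPKM (Log2FC 1.34 ± 0.25, adjusted p = 0.00676). Tapbp went from 33.2, 29.9 and 22.99 FPKM to 99.8, 82.2 and 106 FPKM (Log2FC 1.73 ± 0.19, adjusted p = 0.00108). In each of the 3 genes LPS library 2 was the lowest of the LPS libraries and still above every control. Tap1 over Tap2 overlapped between all liver groups, at 0.800 to 1.07 in controls and 0.995 to 1.17 with LPS.

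B2m had the opposite sign to the 4 heavy chain members in liver, though not to H2-Q10 and H2-K2, given below. It read 5671, 4442 and 4571 FPKM in controls and 2978, 4114 and 2854 FPKM after LPS, below every control. The Log2FC was -0.57 ± 0.23 (SE, adjusted p = 0.0817) and was not called. B2m over the 4 heavy chains was 4.004 to 5.30 in controls, 1.16 to 2.57 after LPS and 1.53 to 1.72 with LPS+MIC-1, with no overlap of either treated group with controls (exact permutation p = 0.1 for each). The fall of this ratio covers the 4 members only. All 17 H2 heavy chain genes with a row, H2-Q10 among them, summed to 2949 to 3230 FPKM in control livers. With LPS they summed to 3007 to 4025 FPKM, which overlapped controls, and with LPS+MIC-1 to 3347 to 3513 FPKM. H2-D1 over H2-K1 moved from 0.237 to 0.402 in controls to 0.640 to 0.851 with LPS (exact permutation p = 0.1). Nlrc5 read 3.37, 8.36 and 8.31 FPKM in controls and 4.07, 7.97 and 5.43 after LPS, with a Log2FC of -0.13 and a 95% interval from -0.95 to 0.68. Erap1 read 13.6, 14.6 and 13.3 FPKM in controls and 14.3, 12.7 and 14.6 after LPS, and its Log2FC of 0.01 had an interval from -0.34 to 0.35.

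**Figure D4:**
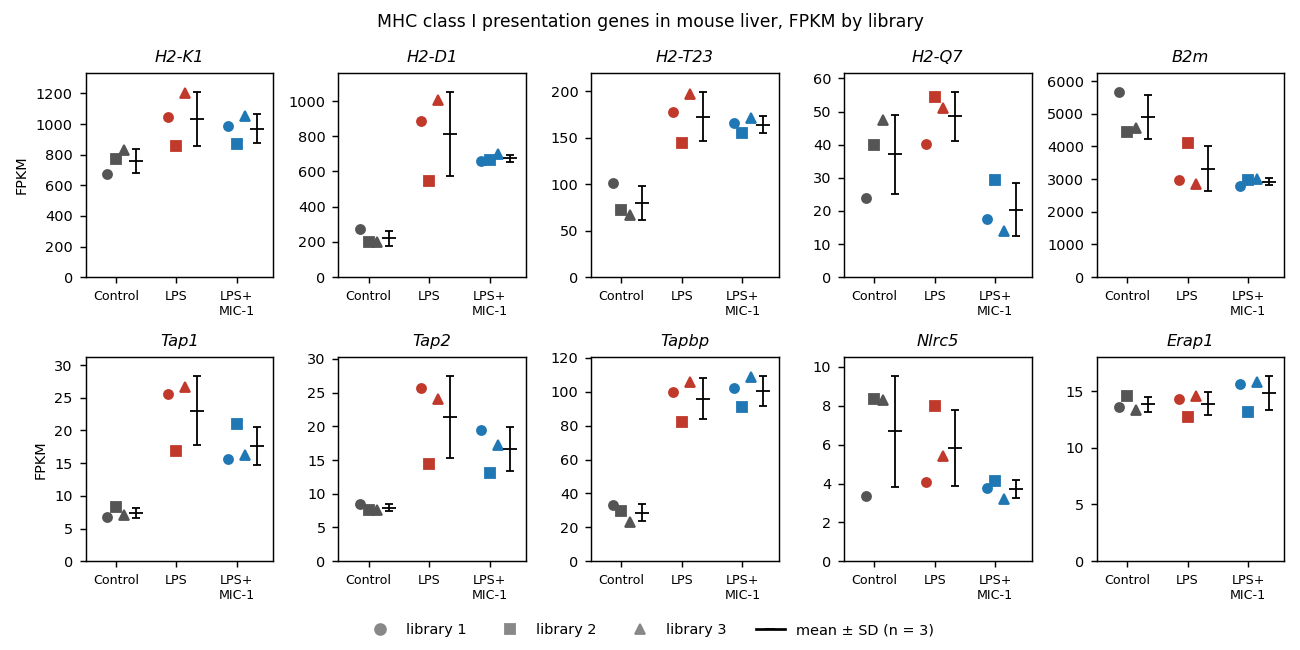
FPKM of the 10 members in the liver libraries, 1 panel per gene with a linear axis from 0, points for libraries and bars for the mean with its SD (n = 3 per group). LPS and LPS+MIC-1 livers sit together above controls for H2-D1, H2-T23, Tap1, Tap2 and Tapbp, and H2-Q7 is lowest with LPS+MIC-1, at 14.1 to 29.4 FPKM.

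LPS+MIC-1 livers were compared with LPS livers for the effect of MIC-1 in the animal. None of the members was called, as none of the 10147 genes was (0%), with a smallest adjusted p of 0.0546 by limma and 100 genes at an unadjusted p below 0.05 with an absolute Log2FC above 1. H2-Q7 was the 1 member of 10 whose groups did not overlap, a share near the 9.75% of all genes. It read 17.5, 29.4 and 14.1 FPKM with MIC-1 against 40.1, 54.3 and 51.2 with LPS, and its Log2FC was -1.29 ± 0.33 (SE, adjusted p = 0.997). For the other 9 the Log2FC ran from -0.55 for Nlrc5 to 0.09 for Erap1. H2-D1 read 657, 667 and 699 FPKM with MIC-1, inside the LPS range, and the 95% interval of its Log2FC was -0.82 to 0.37. The interval of B2m was -0.69 to 0.36, that of Tapbp -0.37 to 0.52 and that of Tap1 -0.86 to 0.14. The median Log2FC of the members was -0.19 against -0.01 for all genes. Of the members, only Tap1 was lowest in LPS library 2 (16.9 FPKM) and highest in LPS+MIC-1 library 2 (21.0 FPKM), as the macrophage marker sums were. H2-K1, H2-T23, Tap2, Tapbp and Erap1 were lowest in library 2 of both groups, and H2-Q7 and Nlrc5 highest in it. B2m was highest in LPS library 2 and in the middle of the LPS+MIC-1 libraries. H2-D1 was lowest in LPS library 2 and in the middle of the LPS+MIC-1 libraries. The part of the markers in this comparison was not tested.

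Against control livers, LPS+MIC-1 livers had higher H2-D1 (Log2FC 1.62 ± 0.26, adjusted p = 0.00379), H2-T23 (1.06 ± 0.21, adjusted p = 0.00759), Tap1 (1.199 ± 0.22, adjusted p = 0.00549), Tap2 (1.00 ± 0.25, adjusted p = 0.0159) and Tapbp (1.81 ± 0.19, adjusted p = 0.000961). These 5 of the 10 rose where 13.8% of all genes tested rose, and the median Log2FC of the members was 0.68 against 0.15. Tapbp read 102, 91.1 and 108 FPKM, H2-T23 166, 155 and 172 FPKM, Tap1 15.7, 21.0 and 16.3 FPKM and Tap2 19.5, 13.0 and 17.3 FPKM with MIC-1, all above every control. No overlap with controls held for 7 of the 10 members and for 54.6% of all genes. B2m read 2802, 2961 and 3007 FPKM, below every control, with a Log2FC of -0.74 ± 0.23 (adjusted p = 0.0365) that did not reach the fold limit. H2-K1 (0.35), H2-Q7 (-0.86), Nlrc5 (-0.68) and Erap1 (0.10) were not called. Under the same FPKM sum only Tapbp (1.16) stayed called as higher, while B2m (-1.39), H2-Q7 (-1.51) and Nlrc5 (-1.28) were called as lower and H2-K1 (-0.30) and Erap1 (-0.54) changed sign. The count was 3 without control library 2 or control library 3, and 1 with libraries 1 and 3 of every group averaged, controls included. The LPS and LPS+MIC-1 livers share these controls, so the likeness of their values is not independent.

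Beside the shares given above, the lists of other pathway genes are read against these shares of all genes. Over 8 RAW264.7 libraries 17.9% fell with LPS, 11.3% rose with LPS+MIC-1 against LPS and 7.55% rose with LPS+MIC-1 against control. Over 9 libraries the last 2 were 2.06% and 3.27%. In liver 11.2% fell with LPS and 11.5% with LPS+MIC-1 against control. List counts under the same FPKM sum have another background. Over 8 RAW264.7 libraries 5074 of 9905 genes were then called with LPS, 497 of them higher. For LPS+MIC-1 against LPS 3871 were called, 3602 higher, and against control 1723, of which 594 were higher. In liver 2648 of 10147 were called with LPS, 797 higher, and 3119 with LPS+MIC-1 against control, 535 higher.

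Other heavy chains, whose copies share sequence with the members, were also called in RAW264.7. Of 12 tested, 9 rose and 2 fell with LPS over 8 libraries (3 and 2 under the same FPKM sum, 0 and 0 over 9 libraries). Those that rose included H2-K2, from 59.5 ± 9.77 FPKM in controls (SD, n = 3) to 249.9 and 238 FPKM in LPS libraries 1 and 3, H2-Q8, H2-T9 and H2-M3, which presents formylated peptides. H2-T24 and the iron regulator Hfe fell (Log2FC -2.28 and -1.89). With MIC-1 added, 8 of the 12 fell against LPS over 8 libraries (7 under the same FPKM sum, with 2 higher) and 2 over 9 libraries, H2-Q6 and H2-Q8. The 4 genes H2-Q6 to H2-Q9 summed to 122 to 167 FPKM in RAW264.7 controls, 447, 182 and 427 after LPS and 38.6 to 59.9 with LPS+MIC-1. H2-Q7 made up 0.241 to 0.317 of that sum in all 9 RAW264.7 libraries.

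In liver 4 of 11 other heavy chains rose after LPS and 1 fell (3 and 1 under the same FPKM sum). Those that rose were H2-Q8, H2-Q9, H2-M3 and H2-T22, which was listed at 0 in the 3 controls. H2-K2, the neighbour of H2-K1, fell from 28.0, 51.1 and 67.0 FPKM to 6.08, 13.6 and 5.40 (Log2FC -2.50 ± 0.47, adjusted p = 0.0068), with 3.68, 9.61 and 6.08 FPKM after LPS+MIC-1. H2-Q10, a heavy chain that liver secretes, was at 1795 to 2005 FPKM in controls and 1369 to 1498 FPKM with LPS, more than any heavy chain member in controls. The 4 genes H2-Q6 to H2-Q9 summed to 32.0 to 59.3 FPKM in controls, 71.1 to 102 after LPS and 41.2 to 54.3 with LPS+MIC-1. The share of H2-Q7 in that sum was 0.750 to 0.800 in controls, 0.446 to 0.764 after LPS and 0.330 to 0.542 with LPS+MIC-1, and LPS+MIC-1 did not overlap control (exact permutation p = 0.1).

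Peptides for class I come from the proteasome, whose inducible subunits Psmb8, Psmb9 and Psmb10 replace constitutive ones in inflammation. Of 10 genes of peptide supply in RAW264.7, LPS raised Psmb6 over 8 libraries and lowered none (0 and 7 under the same FPKM sum). With LPS+MIC-1 against control, 4 of the 10 fell over 9 libraries, over 8 libraries and, over 8, under the same FPKM sum, namely Psmb8, Psmb9, Psmb10 and the activator Psme1. With LPS+MIC-1 against LPS 2 of the 10 fell and 1 rose, both over 8 libraries (Psmb6 and Psmb9 fell) and over 9 (Psmb8 and Psmb9 fell), and the gene that rose was the peptidase gene Tpp2 (Log2FC 1.30 and 1.16). Psmb10 read 104, 99.2 and 101 FPKM in controls, 60.4, 104 and 55.2 after LPS and 31.0, 28.8 and 32.7 with LPS+MIC-1. Psmb9 read 106, 136 and 103 FPKM in controls, 83.5, 129 and 92.0 after LPS and 40.0, 20.4 and 39.8 with LPS+MIC-1. The LPS libraries of Psmb9 and Psmb10 lay below or within the control range, unlike those of the heavy chains.

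In liver 3 of the 10 rose with LPS, namely Psmb8, Psmb10 and the constitutive Psmb7 (2 under the same FPKM sum, Psmb8 and Psmb10). Psmb8 read 13.9, 18.4 and 16.4 FPKM in controls, 83.7, 110.0 and 96.8 after LPS and 79.1, 101 and 84.4 with LPS+MIC-1 (Log2FC 2.54 ± 0.19 for LPS, adjusted p = 0.000246). With LPS+MIC-1 against control 5 of the 10 rose (2 under the same FPKM sum), and against LPS none was called.

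Among 10 genes of loading and trafficking in RAW264.7, none was called for LPS over 8 libraries (5 fell under the same FPKM sum). Hspa5, a chaperone of the endoplasmic reticulum, rose with MIC-1 against LPS, from 918, 855 and 901 FPKM to 1805, 1991 and 1809.8 FPKM (Log2FC 1.04 ± 0.06 over 8 libraries, adjusted p = 9.17e-06), and 6 of the 10 rose under the same FPKM sum. In liver 5 of 9 tested rose with LPS (2 under the same FPKM sum), among them Pdia3 and Erp29, disulfide isomerase family members. Erp29 read 24.5, 22.4 and 16.8 FPKM in controls, 49.3, 50.6 and 68.1 after LPS and 102, 60.3 and 98.1 with LPS+MIC-1.

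Of 14 transcription factors of the pathway tested in RAW264.7, LPS over 8 libraries raised 1, Irf8, and lowered 3, Irf1, Rfx5 and Nfyc (0 rose and 9 fell under the same FPKM sum). Among all genes 16.3% rose and 17.9% fell, so the counts say nothing particular about this list. Irf1, an activator of class I promoters, read 17.6, 21.9 and 16.7 FPKM in controls, 7.68, 22.3 and 5.59 after LPS and 10.1, 6.71 and 9.80 with LPS+MIC-1. Interferon transcripts were scarce in RAW264.7 and liver, with Ifnb1 at most 1.19 FPKM and Ifng at most 0.498 FPKM in any library. Of 5 interferon receptor genes tested in RAW264.7 over 8 libraries, LPS raised Ifnar1 and Ifnar2 and lowered Ifngr1 (0 rose and 2 fell under the same FPKM sum). With LPS+MIC-1 against LPS, 3 of these 5 fell over 8 libraries, where 12.0% of all genes fell. Of the 14 transcription factors 1 rose and 1 fell in that comparison over 8 libraries, where 11.3% of all genes rose. Over 9 libraries no gene of these 2 lists was called in either comparison. In liver 1 of 12 transcription factors, Irf2, fell with LPS, also under the same FPKM sum, and none of the receptors was called for LPS against control as deposited. Ifnar1 fell with LPS+MIC-1 against control (Log2FC -1.04 ± 0.20, adjusted p = 0.00723).

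**Figure D5:**
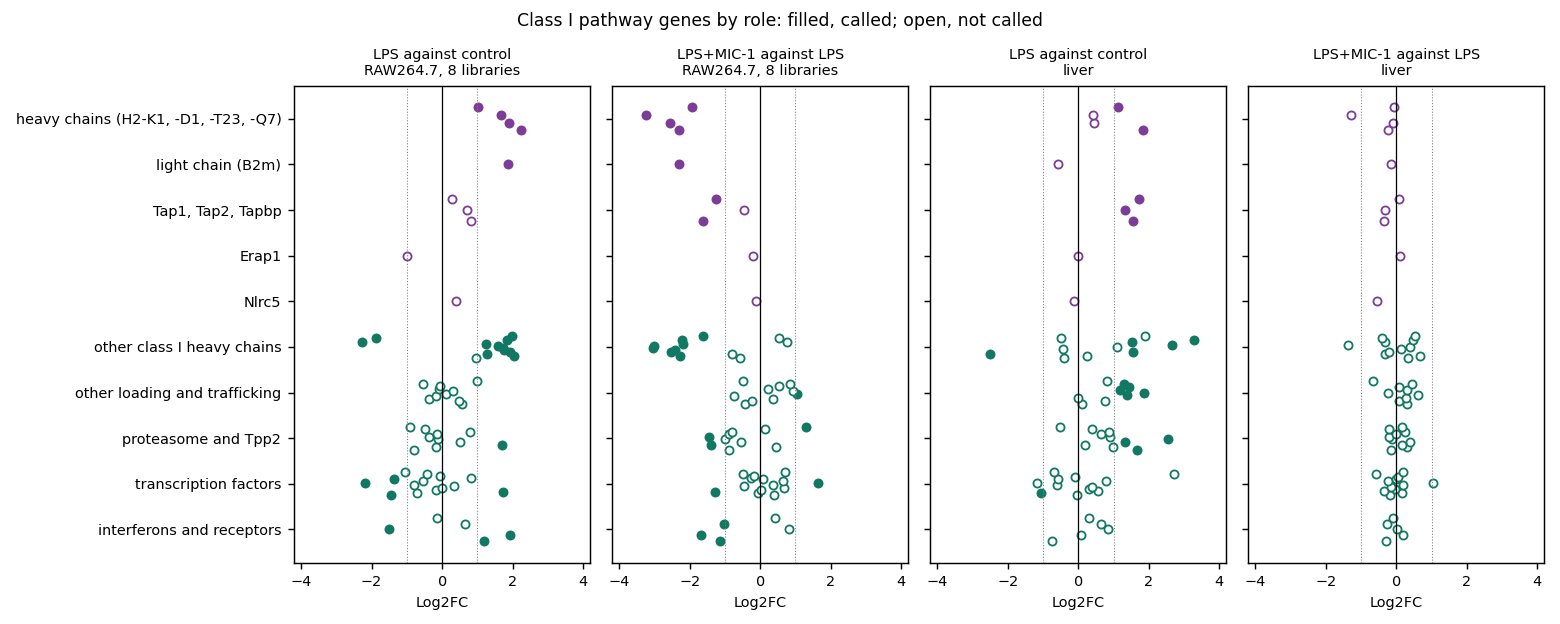
Log2FC of the genes of each list in each comparison, on a log2 scale, for LPS against control and LPS+MIC-1 against LPS in RAW264.7 over 8 libraries and in liver. Each point is a gene, filled where called, with the members by role on top, and the other heavy chains of RAW264.7 show 9 of 12 called higher for LPS and 8 of 12 called lower when MIC-1 is added to LPS.

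The genes whose profile was nearest to the median profile of the members, by the root mean square distance of centred log2 values, were Gm2a, Adssl1, Ier5, Use1 and Cdc25b in RAW264.7. Their distances were 0.0634 to 0.111 over 8 libraries, where the members' median profile spanned 1.95 on the log2 scale. The same 5 genes were nearest over 9 libraries, at 0.073 to 0.0987. In liver the nearest were Srp68, Mapksp1, Mtrf1, Nhlrc3 and Srrm4, at 0.0856 to 0.122 over 9 libraries with a span of 1.12.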

How the data were processed

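RNA-seq of 9 RAW264.7 and 9 liver libraries was used, 3 per treatment. The authors pseudoaligned reads with Kallisto 0.45.0 to a RefSeq index of mm9, collapsed transcripts to genes with tximport and deposited FPKM, with 1 table per source normalized on its own. Scaling to length makes levels comparable between genes, but close copies among the H2 genes can share reads. Deposited DESeq2 1.20.0 comparisons hold fold changes and p-values and were not used.

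FPKM were taken as log2(FPKM + 0.5) for genes whose average FPKM in the 9 libraries of a table exceeded 1, so a fold change understates that of a low gene. All 3 groups were fitted together with limma 3.58.1 (R 4.3.3; lmFit, contrasts, eBayes with trend), and p-values were Benjamini-Hochberg adjusted over all genes tested. Differences are Log2FC ± SE on this scale, and folds are ratios of mean FPKM. A gene was called at an absolute Log2FC above 1 with adjusted p below 0.01 in RAW264.7 and below 0.05 in liver. RAW264.7 was fitted with 9 libraries and with 8. The fit was checked on simulated libraries holding 200 genes of known fold change. Ratios within libraries were compared by exact two-sided permutation tests.

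The members, the gene lists and the library left out were chosen with earlier results of these data known. All 10 members are named. Of the other lists, only some of the genes that were called or are set beside a result are named, with the 5 genes nearest to the median member profile of each table. Table columns were matched to treatments by their headers. Depth was estimated from the steps between low FPKM values, of which 58.7% in RAW264.7 and 50.4% in liver were near whole reads, so it is approximate. Promoters are RefSeq sequences of GRCm38 placed in mm9 by exact match. Alternatives were other pseudocounts, filters, scalings, limits and trends, only the groups compared, and each library left out. In liver, averaging libraries 1 and 3 was chosen after seeing the data.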

Additional observations from a re-analysis of the deposited data

Results flagged for a closer look

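Some members had opposite signs in RAW264.7 and liver, with every treated library on 1 side of the controls in RAW264.7 and on the other side in liver. The difference between the sources was not tested, since the tables were normalized separately, and the LPS+MIC-1 values share their controls with the LPS values.

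For LPS against control the Log2FC of B2m was 1.33 over 9 RAW264.7 libraries and 1.88 over 8, and -0.57 in liver. It was 1 of the 10 members with this pattern, which 6.23% of the 8172 genes tested in both tables had over 9 libraries and 17.7% over 8.

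For LPS+MIC-1 against control the Log2FC of Tapbp was -0.97 in RAW264.7 and 1.81 in liver, that of Tap1 -0.81 and 1.199, and that of H2-T23 -0.95 and 1.06. H2-K1 had -0.66 in RAW264.7 and 0.35 in liver, which turned to -0.30 in liver when libraries were rescaled to the same FPKM sum. The RAW264.7 values are those over 9 libraries. These were 4 of the 10 members, where 18.8% of the 8172 genes had the pattern.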

How the results depend on the processing

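No paired analysis was possible because the table columns carry no replicate numbers. Of the member results under the alternatives 1548 kept their direction and their side of the limits, 81 lost a call, 42 gained one and 39 changed sign, and none of the 39 was called with either sign.

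The counts of called members that moved by over 1.5 times were these, with the reported count in parentheses. For LPS against control they were 8 with no minimum fold change and 2 with the same FPKM sum over 8 RAW264.7 libraries (5), and 3 with the same FPKM sum and 1 with libraries 1 and 3 averaged in liver (5). Over 9 RAW264.7 libraries that count was 0 to 5 with each library left out, the 5 being without LPS library 2 (0). For LPS+MIC-1 against LPS over 9 libraries it was 0 with libraries 1 and 3 averaged, 3 with no filter on low values, 0 with only the compared groups fitted and 2 to 7 with each library left out, the 7 being without LPS library 2 (5). In liver it was 1 at an unadjusted p below 0.05 (0). For LPS+MIC-1 against control it was 5 with no minimum fold change and 4 with the same FPKM sum over 8 libraries (2). Over 9 libraries it was 2 at adjusted p below 0.05, with no minimum fold change or with only the compared groups fitted, 3 with the same FPKM sum, 0 with no filter or with libraries 1 and 3 averaged, and 0 to 2 with each library left out (1). In liver it was 1 with libraries 1 and 3 averaged and 3 to 7 with each library left out (5).

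The Log2FC that changed sign with the same FPKM sum were, over 8 and over 9 RAW264.7 libraries, Tap1 (-0.17 and -0.033), Tap2 (-0.27 and -0.076), Tapbp (-0.70 and -0.48) and Nlrc5 (-0.54 and -0.35) for LPS against control, and Tap2 (0.33 and 0.14), Nlrc5 (0.66 and 0.47) and Erap1 (0.57 and 0.016) for LPS+MIC-1 against LPS. In liver they were Erap1 (-0.35) for LPS against control, Erap1 (-0.54) and H2-K1 (-0.30) for LPS+MIC-1 against control, and Erap1 (-0.19) and Tapbp (-0.22) for LPS+MIC-1 against LPS. Liver Erap1 was also at -0.043 with libraries 1 and 3 averaged. With each library left out, values crossing 0 in liver were Erap1 (-0.031 to 0.064) and Nlrc5 (-0.53 to 0.080) for LPS against control, and B2m (-0.26 to 0.0034), H2-K1 (-0.21 to 0.034), H2-T23 (-0.19 to 0.037) and Tapbp (-0.033 to 0.15) for LPS+MIC-1 against LPS. In RAW264.7 they were H2-D1 for LPS+MIC-1 against control (-0.16 to 0.10 over 8 and over 9 libraries) and Nlrc5 for LPS+MIC-1 against LPS (-0.22 to 0.084 over 8, -0.12 to 0.19 over 9).

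The cause was not tested. With libraries 1 and 3 averaged over 8 libraries the LPS group is 1 sample, assumed to vary like the others. Estimated reads of a member were fewest for Tap2 in liver control libraries 2 and 3 (141 and 143).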
